A study of Sorghum bicolor with 4 samples.

Results

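The abundant genes whose RNA level lay close together at both stages of the sweet sorghum stem numbered 89, of 34458 loci measured. They were chosen from the deposited FPKM values (by definition, fragments scaled to the length of the locus and to the number of fragments mapped). A member had exactly 1 Sobic gene identifier, at least 300 FPKM at both stages, and a ratio of physiological maturity to the milk stage between 0.8 and its inverse, 1/0.8. Of the 31423 loci with 1 identifier, 187 reached 300 FPKM at both stages, and the 89 members are 47.6% of these. Because the same values chose the members, their closeness between the stages is a description and was not tested.

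RNA came from the middle stem internode of field-grown plants of the line ICSA38. Plants at physiological maturity were represented by 2 libraries, and plants at the milk stage of grain filling (labelled milky stage) by 2 more. Line, tissue and open-field growth were shared by both groups, and the labels do not say whether libraries came from separate or pooled plants. The deposited table holds 1 value per locus and stage, so no standard deviation, test or p-value can be given, and the spread between libraries is unknown.

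Abundant transcripts of near-constant level are often those of basic cell functions such as protein synthesis, the cytoskeleton and energy metabolism, and such genes are commonly used as references in quantitative PCR. FPKM is a relative unit. For a locus of fixed length, a constant value means a constant share of the mapped fragments only if no further scaling was applied. How the libraries were scaled is not known here. A constant value does not mean a constant number of molecules per cell, nor a constant share of the FPKM sum, which differed between the stages. In a whole internode, fewer cells of a type and less RNA per cell cannot be told apart. The files pair no identifier of the members with a gene name or product, and 0 of the table's 34129 identifiers were found in the RefSeq gene table. The members are therefore given by identifier, without roles, and the tissue was not checked against marker genes.

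**Figure D1:**
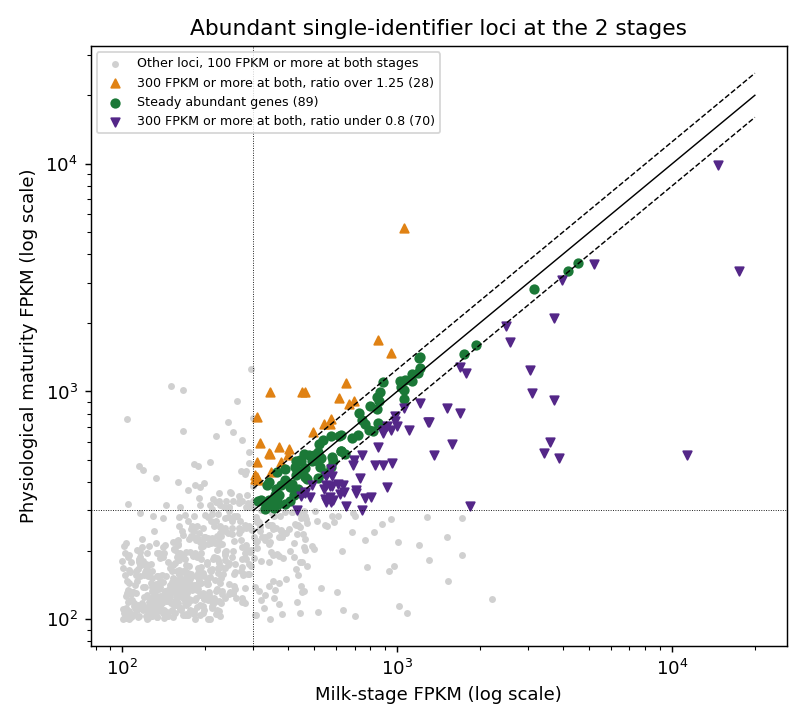
FPKM at physiological maturity (vertical, log scale) against FPKM at the milk stage (horizontal, log scale) for loci with 1 identifier and at least 100 FPKM at both stages. Solid and dashed lines mark ratios of 1, 0.8 and 1/0.8, and dotted lines mark 300 FPKM. The 89 steady genes (circles) lie between the dashed lines, with 70 abundant loci below them and 28 above.

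The members spanned more than 10-fold in level. Their values ran from 305 to 3672 FPKM at maturity, with a median of 502 FPKM, and from 312 to 4546 FPKM at the milk stage, with a median of 515 FPKM. Together they held 9.43% of the FPKM sum at maturity and 8.20% at the milk stage. The 98 other loci that passed the same minimum held 12.8% at maturity and 17.9% at the milk stage. The members summed to 62908 FPKM at maturity and 65688 FPKM at the milk stage, and the ratio window that chose them requires these sums to be close. The other abundant loci, which by the same rule lie outside the window, summed to 85062 FPKM at maturity and 143697 FPKM at the milk stage.

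The 5 most abundant genes by mean were each lower at maturity. The cut after these 5 was made once the values had been seen, at a place where the direction changed. Sobic.004G006300 had 3672 FPKM at maturity and 4546 FPKM at the milk stage, a ratio of 0.808. Sobic.003G117000 had 3367 FPKM at maturity and 4197 FPKM at the milk stage, a ratio of 0.802 and so close to the lower limit. Sobic.008G136000, at 2822 FPKM at maturity and 3140 FPKM at the milk stage, was the closest to an equal level of these 5, with a ratio of 0.899. The remaining pair was less abundant. Sobic.009G231300 had 1600 FPKM at maturity and 1940 FPKM at the milk stage. Sobic.008G185900 had 1463 FPKM at maturity and 1746 FPKM at the milk stage. Their ratios were 0.825 and 0.838, and these 5 genes held 20.5% of the members' summed FPKM at maturity and 23.7% at the milk stage.

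The next 10 genes by mean, between 1000 and 1400 FPKM, leaned the other way, with 8 higher and 2 lower at maturity. Sobic.003G005800 had 1419 FPKM at maturity and 1213 FPKM at the milk stage, a ratio of 1.17. Sobic.006G257900 had 1398 FPKM at maturity and 1198 FPKM at the milk stage, also a ratio of 1.17. These were the most distant from 1 among the 10. Nearer to an equal level were Sobic.001G498200 with 1262 FPKM at maturity and 1210 FPKM at the milk stage, and Sobic.001G374700 with 1188 FPKM at maturity and 1131 FPKM at the milk stage. Sobic.001G098500 differed by 1.23%, with 1207 FPKM at maturity and 1192 FPKM at the milk stage. The 2 lower genes were Sobic.010G173100, at 1111 FPKM at maturity and 1137 FPKM at the milk stage, and Sobic.002G406500, at 1013 FPKM at maturity and 1056 FPKM at the milk stage. Below 1000 FPKM the directions were mixed. Among the 18 members with a mean of 600 to 1000 FPKM, 10 were higher and 8 lower at maturity. At 400 to 600 FPKM 16 of 34 were higher, and at 300 to 400 FPKM 7 of 22 were higher.

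**Figure D2:**
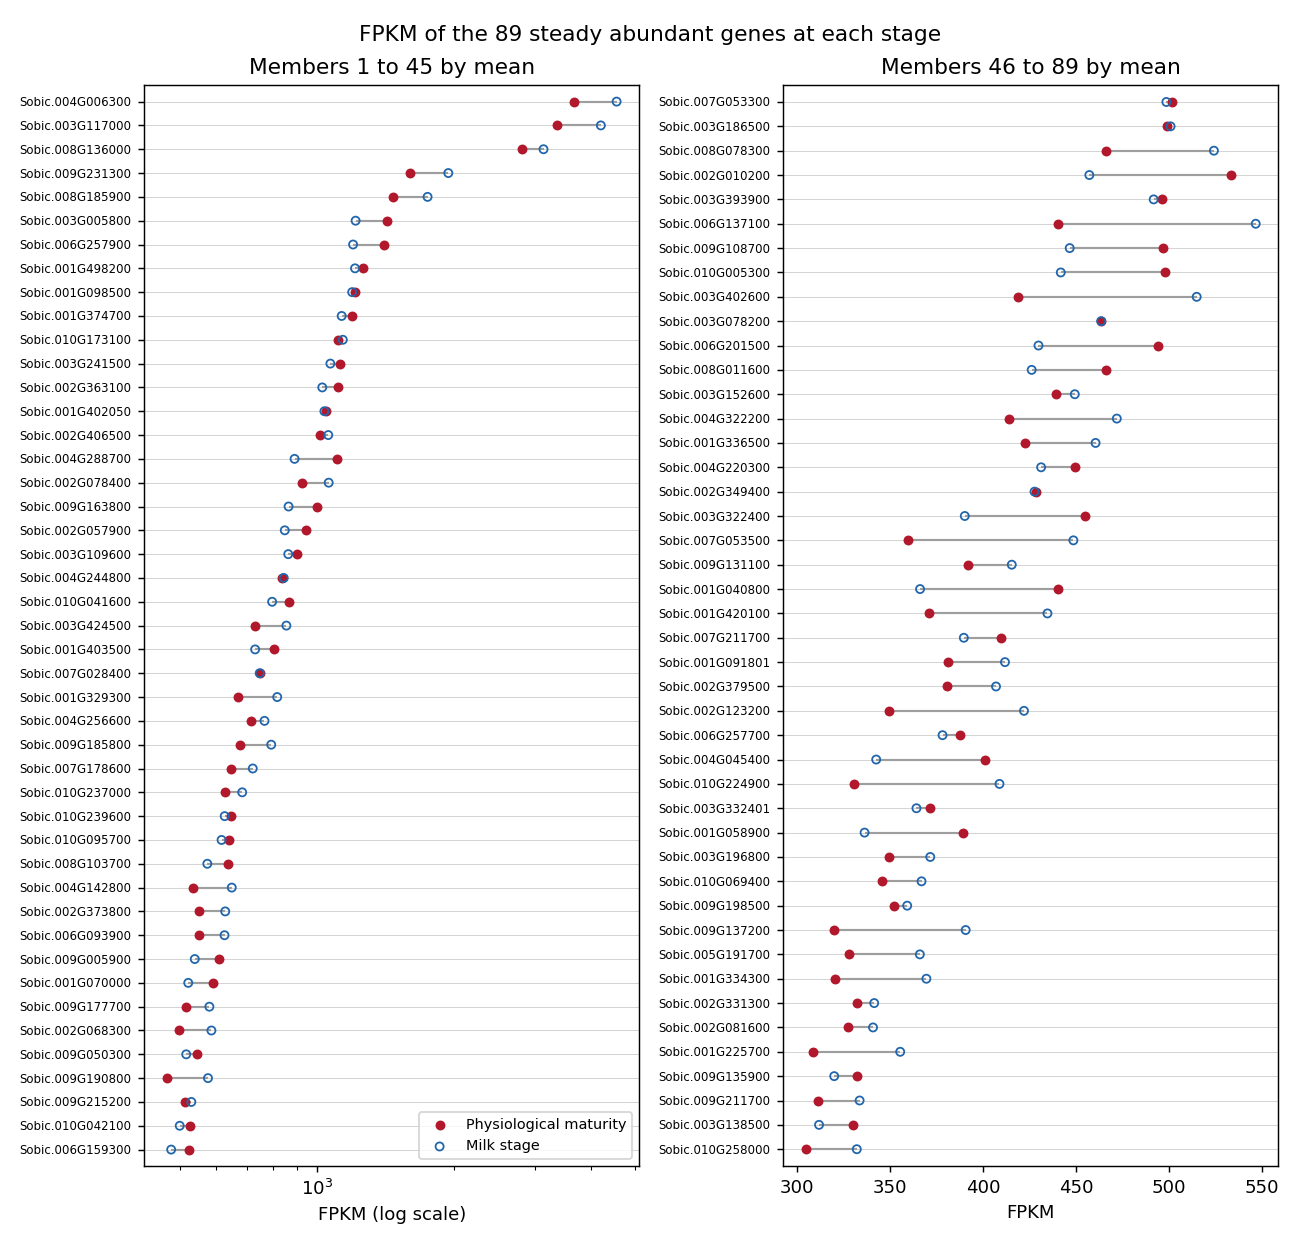
FPKM of each of the 89 members at physiological maturity (filled circles) and at the milk stage (open circles), ordered by the mean of the stages, with a log scale in the left panel and a linear scale in the right. The 5 most abundant members are all lower at maturity, and the directions are mixed further down.

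Within the ratio window the members were spread widely and did not pile up at an equal level. The median ratio was 0.980, with quartiles of 0.878 and 1.06, and 41 members were higher and 48 lower at maturity. A difference of at most 10% of the milk-stage value was seen in 45 members, of at most 5% in 25, and of at most 1% in 8. The gene closest to an equal level was Sobic.003G078200, at 463.25 FPKM at maturity and 463.51 FPKM at the milk stage. Next came Sobic.007G028400, at 748 FPKM at maturity and 747 FPKM at the milk stage. Sobic.002G349400 had 429 FPKM at maturity and 428 FPKM at the milk stage. The next closest were Sobic.003G186500 (499 FPKM at maturity and 501 FPKM at the milk stage) and Sobic.007G053300 (502 FPKM at maturity and 499 FPKM at the milk stage). Agreement of that order in 1 pair of values does not show that separate libraries would agree as closely.

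The limits cut through a continuous range of ratios on the lower side. Between ratios of 0.8 and 0.85 there were 14 members, and between 0.75 and 0.8 there were 14 abundant loci that are no members. Just inside the lower limit were Sobic.007G053500, with 359 FPKM at maturity and 449 FPKM at the milk stage (ratio 0.801), Sobic.003G117000 (given above) and Sobic.006G137100, with 440 FPKM at maturity and 547 FPKM at the milk stage (ratio 0.805). Just outside it were Sobic.004G259200, with 848 FPKM at maturity and 1063 FPKM at the milk stage (ratio 0.798), and Sobic.001G028800, with 782 FPKM at maturity and 982 FPKM at the milk stage (ratio 0.796). The upper side was thinner. Only 2 members had a ratio above 1.2, Sobic.004G288700 with 1102 FPKM at maturity and 891 FPKM at the milk stage (ratio 1.24) and Sobic.001G040800 with 441 FPKM at maturity and 366 FPKM at the milk stage (ratio 1.203). The next from that edge was Sobic.004G045400, with a ratio of 1.17. Between 1/0.8 and 1.3 lay 3 abundant loci, the nearest being Sobic.004G036200 with 721 FPKM at maturity and 571 FPKM at the milk stage (ratio 1.26) and Sobic.002G039000 with 442 FPKM at maturity and 347 FPKM at the milk stage (ratio 1.27).

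The minimum of 300 FPKM was as arbitrary a line. Sobic.010G258000, with 305 FPKM at maturity and 332 FPKM at the milk stage, was the member nearest to it. Sobic.001G225700 had 308 FPKM at maturity and 355 FPKM at the milk stage, and Sobic.009G211700 had 311 FPKM at maturity and 334 FPKM at the milk stage. Of the loci with a ratio in the window, 16 members had a lower value of 300 to 350 FPKM, and 25 loci just missed the minimum with a lower value of 250 to 300 FPKM. The nearest of these were Sobic.003G401400 (299.95 FPKM at maturity and 319 FPKM at the milk stage), Sobic.003G437800 (331 FPKM at maturity and 298.92 FPKM at the milk stage) and Sobic.004G306200 (313 FPKM at maturity and 296 FPKM at the milk stage).

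The share of steady loci depended on how abundance was defined. Of the 187 loci that reached 300 FPKM at both stages, 47.6% were steady, 37.4% had a ratio under 0.8 and 15% a ratio over 1/0.8. Over the 14591 loci with 1 identifier and at least 1 FPKM at both stages, 32% were steady. That share also rests on a minimum at both stages, so it is no like background for the shares by the mean given below. Requiring the minimum at both stages leaves out loci that reached 300 FPKM at 1 stage and not at the other. With the minimum set on the mean of the stages, 97 of 300 loci (32.3%) were steady, while 151 were lower and 52 higher at maturity. The share of 47.6% therefore belongs to loci chosen for being high at both stages and is not a property of abundant loci at large. Grouped by the mean, the steady share was 22.8% at 1 to 5 FPKM, 30.7% at 5 to 20 FPKM, and between 32.2% and 33.6% in each range above that. Between the lowest and the highest of these ranges, the share of loci with a ratio over 1/0.8 was 43.9% at 1 to 5 FPKM and 6.67% at 1000 FPKM and above. The share with a ratio under 0.8 was 33.3% at 1 to 5 FPKM and 60% at 1000 FPKM and above.

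**Figure D3:**
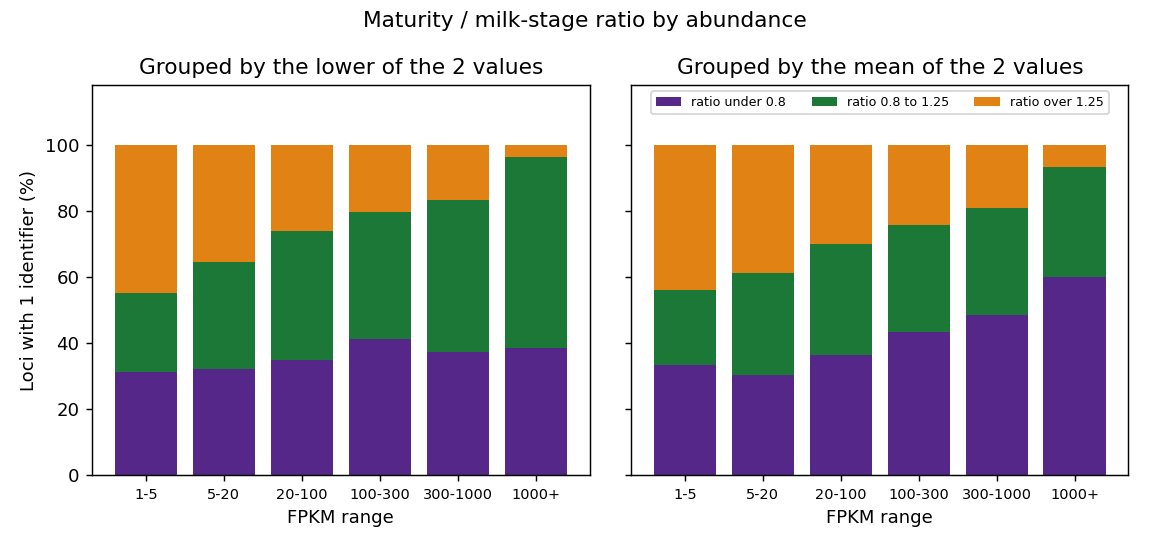
Share of loci with 1 identifier (vertical, %) whose ratio of maturity to milk stage was under 0.8, 0.8 to 1/0.8 or over 1/0.8, by FPKM range (horizontal), with ranges set by the lower value of the stages (left) or by their mean (right). The steady share climbs to 57.7% at 1000 FPKM and above in the left panel and is 33.3% there in the right.

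Although their FPKM was close at both stages, the members stood higher among all loci at maturity. In rank of FPKM over all 34458 loci, 88 of the 89 members were placed higher at maturity than at the milk stage, by a median of 45 places and at most 137. The exception was Sobic.003G117000, in place 8 at both stages. This included 47 of the 48 members whose FPKM was lower at maturity. Sobic.003G078200, the gene with the closest values, was in place 151 at maturity and 205 at the milk stage. Sobic.004G288700 was in place 34 at maturity and 83 at the milk stage. Of the 100 most abundant loci, 35 were members at maturity and 23 at the milk stage. Fewer loci were at these levels at maturity: 286 loci reached 300 FPKM at maturity and 377 at the milk stage, and 39 reached 1000 FPKM at maturity and 67 at the milk stage. A gene of equal FPKM ranks higher where fewer loci lie above it, and the rule holds the members near an equal FPKM. Their rise in rank was thus largely set by the choice of members together with these counts, and was not tested. Nor was a rise in rank particular to the members. All 28 abundant loci with a ratio over 1/0.8 were also placed higher at maturity, by a median of 152.5 places. Of the 70 abundant loci with a ratio under 0.8, 13 were placed higher at maturity and 57 lower.

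**Figure D4:**
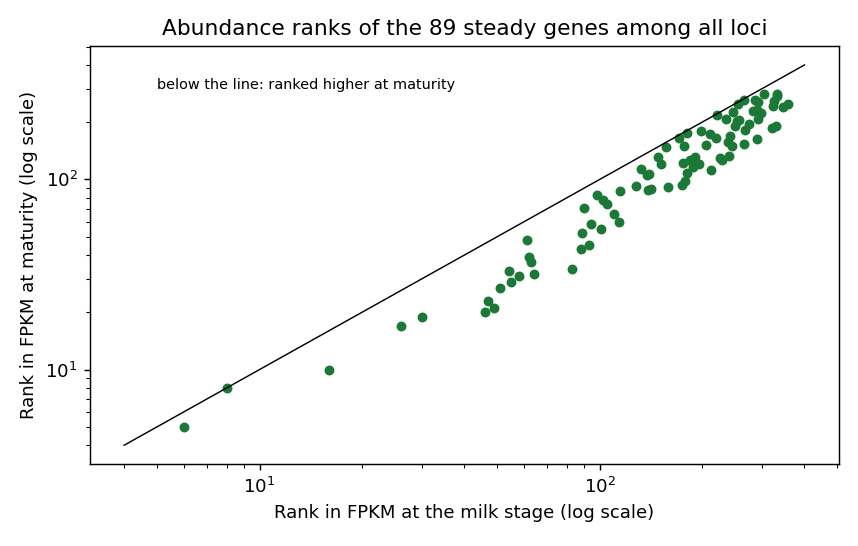
Rank in FPKM at physiological maturity (vertical, log scale) against rank at the milk stage (horizontal, log scale) for the 89 members among all loci, with rank 1 the most abundant. The line marks equal ranks: 88 points lie below it and 1 on it.

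Membership depended on how the stages were scaled against each other. The deposited FPKM summed to 666768 at maturity and 800834 at the milk stage. When both stages were scaled to the same sum, the median of the 14591 loci moved up by 0.26 on the log2 scale, and the 89 genes had a median log2 ratio of 0.24, against -0.03 as deposited. Relative to the median of all loci the members were at -0.04, which a common factor per stage cannot alter, and at 0.38 with quantile normalization. As shares of the sum, the median log2 ratio of the 14591 loci was 0.28, so a higher share at maturity was not particular to the members. Of the 89 genes, 77 had a higher share at maturity and 12 a lower one. For example, Sobic.003G078200 made up 0.0695% of the sum at maturity and 0.0579% at the milk stage. Of the 89 genes, 59 stayed within the ratio window with equal sums, 80 with median-of-ratios scaling and 39 with quantile normalization, which forces the distribution of values to be the same at each stage. Under quantile normalization the genes had a median log2 ratio of 0.38, and 88 were higher at maturity, as their ranks require. With membership drawn anew each time, 30 of the 89 genes qualified under the deposited scale and each of these 3 scalings. Each of the 30 had a deposited ratio under 1, from 0.822 to 0.999, so none of the 41 members higher at maturity was kept. Equal sums and quantile normalization both raised the genes' median ratio, which favours genes that were lower at maturity as deposited. The 30 are therefore not a choice of the steadiest members. The most abundant of these 30 were Sobic.002G078400, with 923 FPKM at maturity and 1059 FPKM at the milk stage, and Sobic.003G424500, with 730 FPKM at maturity and 855 FPKM at the milk stage. None of the 16 most abundant members was among the 30.

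**Figure D5:**
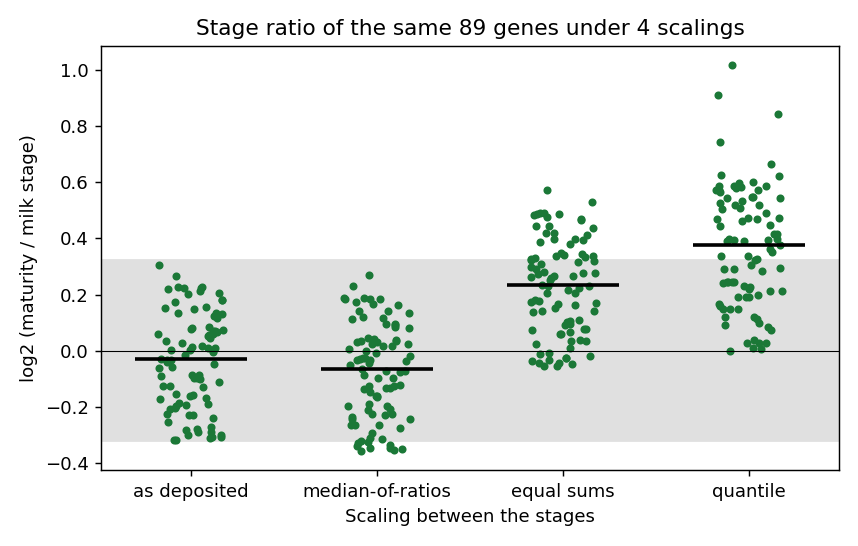
Log2 ratio of maturity to milk stage (vertical) of the same 89 genes under the deposited scale and 3 other scalings (horizontal); each point is a gene, bars are medians and the grey band is the window of 0.8 to 1/0.8. The medians are -0.03 as deposited, -0.07 with median-of-ratios scaling, 0.24 with equal sums and 0.38 with quantile normalization.

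Position in the genome, read from the chromosome number in the identifier, was not used to choose the members. Chromosomes 1, 3 and 9 held 14 members each, chromosome 2 held 12, chromosome 10 held 10 and chromosome 4 held 8. Chromosome 6 had 6 members, chromosomes 7 and 8 had 5 each, and chromosome 5 had 1. Per 1000 loci with at least 1 FPKM at both stages, these counts were 11.2 on chromosome 9 and 1.49 on chromosome 5, against 6.11 over all chromosomes. On chromosome 9, 14 of the 19 abundant loci were members (73.7%), while on chromosome 1 it was 14 of 39 (35.9%). The chromosomes were compared after their counts were seen, and no test was run.

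No members were next to each other in identifier order. The closest pairs by identifier were separated by 1 locus. Sobic.006G257700 (387 FPKM at maturity and 378 FPKM at the milk stage) and Sobic.006G257900 (1398 FPKM at maturity and 1198 FPKM at the milk stage) flanked a locus at 40.4 FPKM at maturity and 25.7 FPKM at the milk stage. Sobic.007G053300 and Sobic.007G053500 flanked a locus at 18.9 FPKM at maturity and 26.5 FPKM at the milk stage. This second pair held one of the genes closest to an equal level beside the member with the lowest ratio. A further pair, Sobic.010G041600 (866 FPKM at maturity and 795 FPKM at the milk stage) and Sobic.010G042100 (525 FPKM at maturity and 498 FPKM at the milk stage), had 4 loci between them.

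The loci next to the members in identifier order were mostly at ordinary levels. Of the 176 neighbours with 1 identifier and at least 1 FPKM at both stages, none was a member and 2 were other abundant loci, at 300 FPKM or more at each stage. The neighbours of the other abundant loci numbered 196, and the 2 members among them were left out of the shares below. By the rule those 2 reach 300 FPKM at both stages and are steady, so both of these shares are lowered. At both stages 10 of the 176 reached 100 FPKM (5.68%). It was 2.58% of the neighbours of the other abundant loci and 5.28% of all loci on the numbered chromosomes that are no members. Medians of the 176 were 13.5 FPKM at maturity and 13.0 FPKM at the milk stage, and those of all such loci 14.01 FPKM at maturity and 13.5 FPKM at the milk stage. A ratio of 0.8 to 1/0.8 was found in 65 of the 176 neighbours (36.9%), against 31.6% of all such loci and 35.6% of the neighbours of the other abundant loci. The members' neighbours thus had a share close to that of the neighbours of other abundant loci.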

How the data were processed

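The authors deposited FPKM values in a single table, with a column for each stage. By their headings, these columns were read as combining both libraries of that stage. Tools named in the submitters' processing notes are Cuffdiff, HISAT2 2.0.5, Bowtie2 2.2.9 and cutadapt 1.8.1, without their roles. For the genome build, strand setting, depth and scaling of libraries, the sources used here say nothing, so counting error is unknown. Levels are per length.

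From the table, ratios were taken as maturity over milk stage with no pseudocount. Scalings tried were equal sums (the mean of both sums), median-of-ratios over loci above 0 at both stages, and quantile normalization. The code for membership and scaling was run on ratios set beforehand, which shows only that it works as written. How well the membership rule and the scalings perform on data such as these was not tested. Lists by product description could not be formed, since no identifier was annotated. Genes named are the most abundant, those nearest to a ratio of 1, those nearest the limits (outside the ratio limits, the nearest 2 on each side), and, added after values were seen, those singled out by position, rank or scaling; the ranges of level were also set then. The members and lists were chosen with earlier results of these data known. Python 3.11.15, numpy 2.4.6, pandas 2.3.3 and matplotlib 3.10.9 were used.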

Additional observations from a re-analysis of the deposited data

How the results depend on the processing

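The count of 89 members was 94 with equal sums, 84 with median-of-ratios scaling and 79 with quantile normalization, but only 58, 80 and 39 of the 89 genes were among them. What makes the scalings differ was not tested. It was 344 with a minimum of 100 FPKM, 41 with 500 FPKM and 5707 with no minimum, 46 and 133 with windows of 0.9 to 1/0.9 and 2/3 to 1.5, 96 with loci of any number of identifiers, and 89 with a pseudocount of 1 FPKM. The steady share (47.6%) was 39.9% with quantile normalization, 25.8% with no minimum, 24.6% and 71.1% with the narrow and wide windows, and 32.3% with the minimum on the mean, an alternative added after seeing the data. The median log2 ratio of the members (-0.03) was -0.0051 with equal sums and 0.036 with quantile normalization when members were drawn anew. Their share of the sum was 11.4%, 8.20% and 8.06% at maturity and 11.9%, 6.84% and 7.84% at the milk stage with equal sums, median-of-ratios and quantile scaling, in that order. No paired analysis was possible because each stage has only 1 deposited value. For that reason fits without each library were not run, and counts by function list could not be formed.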

Other observations

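Loci with several identifiers were not eligible as members. At 300 FPKM or more at both stages there were 24 of them and 1 locus with no identifier. A ratio of 0.8 to 1/0.8 was found in 7 of the 24, each with 2 identifiers, so their values cannot be given to either gene. The most abundant, Sobic.009G164000 with Sobic.009G164100, had 1605 FPKM at maturity and 1973 FPKM at the milk stage, a ratio of 0.813. The second, Sobic.001G107100 with Sobic.001G107200, had 1241 FPKM at maturity and 1179 FPKM at the milk stage. The other 5 had means between 349 and 651 FPKM.

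Identifiers whose number is no multiple of 100 were carried by 3 of the 89 members (3.37%), 6 of the 98 other abundant loci and 5.55% of the single-identifier loci at 1 FPKM or more at each stage. These shares were not tested against each other, and 3 members are too few to read a difference from. The 3 members were Sobic.001G402050, with 1044 FPKM at maturity and 1036 FPKM at the milk stage, Sobic.001G091801, with 381 FPKM at maturity and 412 FPKM at the milk stage, and Sobic.003G332401, with 371 FPKM at maturity and 364 FPKM at the milk stage.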
